A study of Mus musculus with 24 samples.

Results

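The 9 genes described here are markers of the subfields of the mouse hippocampus. Prox1, Dsp, Lct, Tdo2 and Trpc6 stand for the dentate gyrus, and Fibcd1, Spink8, Man1a and Pou3f1 were counted with the CA fields. Every probe set annotated with 1 of these symbols and no other was taken, which gave 17 probe sets of 9 genes (11 for the dentate gyrus and 6 for the CA fields) among 45037 tested probe sets and 18193 genes. No filter on low values was applied, so all 17 were tested, and no member shared a probe set with another gene.

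RNA of the amygdala, hippocampus, cerebral cortex (CC) and prefrontal cortex (PFC) was hybridised to 24 Affymetrix Mouse Genome 430 2.0 arrays, with 3 arrays from mice under chronic mild stress (CMS) and 3 from control mice in each area. All were male, wild-type C57BL/6 mice. By the study's methods they were 6 to 8 weeks old at purchase, so the mice were older when the tissue was taken. CMS consisted of varied mild stressors over 4 weeks with 1 free day in each, their order was not varied between mice, and control mice were left in ordinary housing. The tissue was bulk, so in every comparison fewer cells of a type and less RNA per cell cannot be told apart. The deposited table gives log2 values from which the median over all 24 arrays has been taken, probe set by probe set. A value of 3 is therefore 3 log2 units above the typical array for that probe set, and a value near 0 does not say whether the gene was above background. Levels of different genes cannot be set against each other on this scale.

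In the hippocampus, information from the entorhinal cortex enters the granule cells of the dentate gyrus, passes by their mossy fibres to the pyramidal cells of CA3, and from there to CA1. Each of these cell types keeps its own set of transcription factors, channels and surface proteins, and such genes are widely used to tell the subfields apart in mouse tissue. Granule cells of the dentate gyrus are also replaced in adult life from dividing precursors, and this replacement is known to respond to stress. The study asked how CMS alters gene expression in each area.

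Within groups of 3 arrays, the standard deviation had a median over probe sets of 0.033 to 0.066. The hippocampus arrays stood apart in the Affymetrix spike-in probe sets. The poly-A control probe sets averaged -4.11 on CMS and -4.02 on control hippocampus arrays, against -0.55 to 0.50 in the other 6 groups, and the hybridisation control probe sets averaged -1.53 on CMS and -1.10 on control hippocampus arrays, against -0.19 to 0.83. These differences move with the contrast of the hippocampus against the other areas, and their part in it was not tested.

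All 9 genes were higher in the hippocampus of control mice than in each of the other areas by at least 1 probe set. A probe set was called when its Benjamini-Hochberg adjusted p in limma, over all probe sets, was under 0.05 and its fold change over 2. Of the 17 member probe sets, 13 were called higher in the hippocampus than in the amygdala, where 2.24% of all probe sets were called higher. Against the CC, 13 of 17 were called higher (1.99% of all probe sets), and against the PFC 12 of 17 (1.86%). None was called lower, beside 3.75%, 3.93% and 3.35% of all probe sets in the same order of areas. The median difference of the 17 was 2.37 log2 units against the amygdala, 1.79 against the CC and 1.93 against the PFC, beside 0.029, 0.025 and 0.054 over all probe sets.

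**Figure D1:**
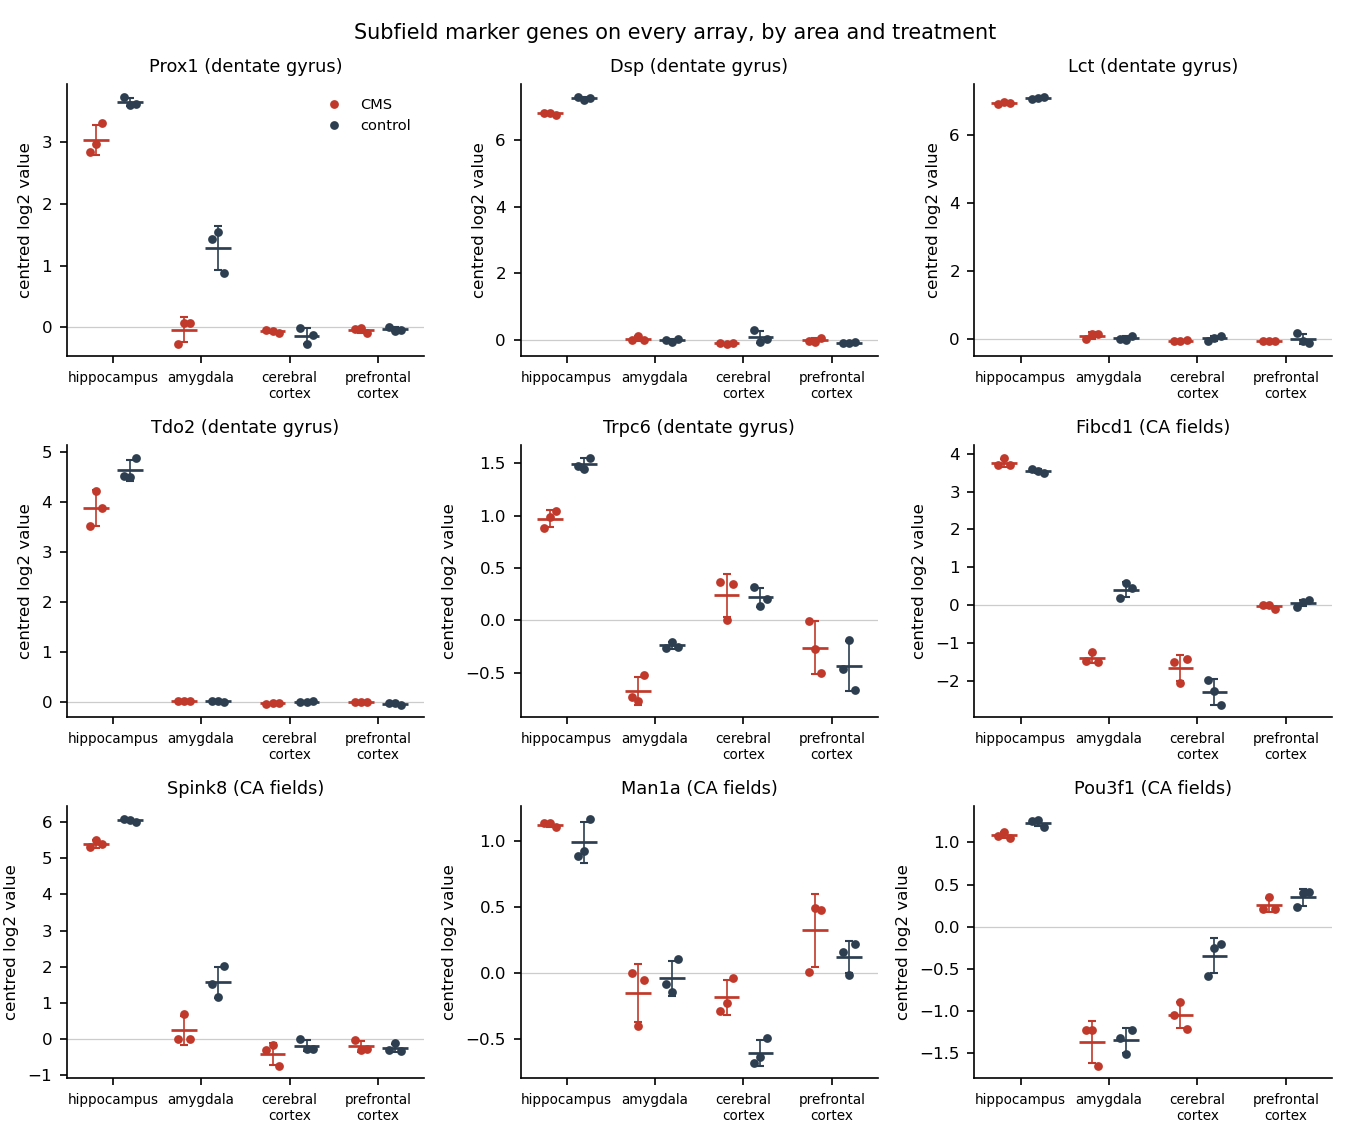
Centred log2 value of the most variable probe set of each of the 9 genes on all 24 arrays, with CMS (red) left of control (dark) in each area. Points are arrays, horizontal lines group means and vertical bars standard deviations (n = 3). All 9 genes are highest in the hippocampus. Prox1, Fibcd1 and Spink8 are lower in the CMS amygdala than in the control amygdala.

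Among the dentate gyrus genes, Prox1 encodes a homeobox transcription factor that granule cells need to keep their identity. Its most variable probe set (1437894_at) read 2.84, 2.97 and 3.31 in CMS mice, against 3.74, 3.61 and 3.62 in control mice in the hippocampus. In the amygdala it read -0.27, 0.077 and 0.077 in CMS mice, against 1.43, 1.55 and 0.89 in control mice. In the CC it read -0.043, -0.056 and -0.087 in CMS mice, against -0.0091, -0.27 and -0.12 in control mice, and in the PFC -0.021, -0.016 and -0.097 in CMS mice, against 0.0091, -0.061 and -0.036 in control mice. The hippocampus arrays lay above all others, and the control amygdala arrays lay above the CMS amygdala and both cortical areas without overlap. In control mice the hippocampus exceeded the amygdala by 2.37 (SE 0.15), the CC by 3.79 (SE 0.15) and the PFC by 3.69 (SE 0.15) on the log2 scale. The order of the control means was hippocampus, amygdala (1.29), PFC (-0.029) and CC (-0.13), and the PFC and CC did not differ beyond their spread (limma, adjusted p = 0.583). The other Prox1 probe sets, 1421336_at and 1457432_at, exceeded the amygdala by 2.89 and 1.78, but their control amygdala means were 0.27 and -0.0089, so the intermediate level of the amygdala was seen with 1 of 3 probe sets.

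Dsp encodes desmoplakin, which ties intermediate filaments to desmosomes. The most variable Dsp probe set (1435494_s_at) read 6.81, 6.80 and 6.75 in CMS mice, against 7.27, 7.19 and 7.25 in control mice in the hippocampus. Amygdala arrays gave -0.0018, 0.14 and -0.0062 in CMS mice, against 0.0018, -0.045 and 0.038 in control mice. CC arrays gave -0.078, -0.11 and -0.088 in CMS mice, against 0.31, -0.051 and 0.043 in control mice, and PFC arrays -0.014, -0.054 and 0.067 in CMS mice, against -0.087, -0.072 and -0.068 in control mice. The hippocampus stood more than 6 log2 units above every other array, and the other areas overlapped. In control mice the difference was 7.24 against the amygdala, 7.14 against the CC and 7.31 against the PFC (SE 0.075 each), which ranked 3, 1 and 3 by size among the 45037 probe sets. The other areas did not differ beyond their spread with this probe set (adjusted p from 0.124 to 0.484). A further probe set, 1435493_at, differed by 6.58, 6.19 and 6.84, and with it the CC mean (0.28) was above those of the amygdala (-0.11, adjusted p = 0.0481) and PFC (-0.36, adjusted p = 0.00348). The remaining one, 1427610_at, differed by 0.55, 0.53 and 0.57 and was not called in control mice, with hippocampus values spread over 0.099, 1.29 and 0.25.

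Lct encodes lactase, the intestinal enzyme that splits milk sugar, and its transcript is a marker of the mouse dentate gyrus. Its only probe set (1439479_at) read 6.90, 6.96 and 6.94 in CMS mice, against 7.03, 7.08 and 7.11 in control mice in the hippocampus. For the amygdala, the values were -0.018, 0.14 and 0.14 in CMS mice, against -0.0091, -0.049 and 0.083 in control mice. For the CC they were -0.070, -0.083 and -0.051 in CMS mice, against -0.074, 0.0091 and 0.086 in control mice, and for the PFC -0.077, -0.059 and -0.066 in CMS mice, against 0.16, -0.070 and -0.12 in control mice. As with Dsp, the hippocampus arrays lay far above an otherwise flat profile. The control differences were 7.07, 7.07 and 7.08 against the amygdala, CC and PFC (SE 0.073 each), ranked 4, 2 and 5 by size. The other 3 areas did not differ from each other beyond their spread (adjusted p from 0.862 to 1.00).

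Tdo2 encodes tryptophan 2,3-dioxygenase, the first enzyme of the kynurenine route of tryptophan breakdown. Its most variable probe set (1419093_at) read 3.51, 4.22 and 3.87 in CMS mice, against 4.51, 4.49 and 4.88 in control mice in the hippocampus. Amygdala values were 0.017, 0.013 and 0.0054 in CMS mice, against 0.013, 0.021 and -0.0074 in control mice. CC values were -0.043, -0.033 and -0.030 in CMS mice, against -0.017, -0.016 and 0.010 in control mice, and PFC values -0.010, -0.0076 and -0.0054 in CMS mice, against -0.029, -0.019 and -0.067 in control mice. Outside the hippocampus all 18 arrays lay within 0.1 of 0. In control mice the hippocampus exceeded the amygdala, CC and PFC by 4.62, 4.63 and 4.66 (SE 0.084 each), and the other areas did not differ beyond their spread (adjusted p from 0.668 to 1.00). The probe sets of Tdo2 disagreed in size: 1449337_at differed by 0.82, 0.82 and 0.84, under the 2-fold limit, and 1455770_at spanned only 0.087 log2 units over all 24 arrays.

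Trpc6 encodes a cation channel of the plasma membrane that opens in response to diacylglycerol. Its only probe set (1449431_at) read 0.89, 0.98 and 1.05 in CMS mice, against 1.48, 1.45 and 1.55 in control mice in the hippocampus. The amygdala gave -0.73, -0.77 and -0.52 in CMS mice, against -0.26, -0.20 and -0.25 in control mice. The CC gave 0.37, 0.0043 and 0.35 in CMS mice, against 0.32, 0.14 and 0.20 in control mice, and the PFC -0.0043, -0.27 and -0.51 in CMS mice, against -0.46, -0.18 and -0.66 in control mice. The hippocampus arrays lay above all others without overlap. The control differences were 1.73, 1.28 and 1.93 (SE 0.10 each) against the amygdala, CC and PFC, the smallest among the most variable probe sets of the 5 dentate gyrus genes. The CC came next after the hippocampus (0.22), above the amygdala (-0.24, adjusted p = 0.00799), while the amygdala and PFC (-0.44) did not differ beyond their spread (adjusted p = 0.192).

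Of the CA field genes, Fibcd1 encodes a membrane receptor that binds acetylated sugars such as chitin and is used as a marker of CA1. Its only probe set (1435482_at) read 3.71, 3.90 and 3.70 in CMS mice, against 3.60, 3.55 and 3.49 in control mice in the hippocampus. In amygdala tissue it read -1.47, -1.24 and -1.499 in CMS mice, against 0.19, 0.57 and 0.46 in control mice. The CC read -1.52, -2.06 and -1.43 in CMS mice, against -1.97, -2.28 and -2.65 in control mice, and the PFC 0.0060, -0.0060 and -0.092 in CMS mice, against -0.039, 0.079 and 0.12 in control mice. The CC arrays were the lowest for this gene in control mice, and in CMS mice the amygdala and CC arrays overlapped. In control mice the hippocampus exceeded the amygdala by 3.14, the CC by 5.85 and the PFC by 3.50 (SE 0.15 each). The amygdala (0.41) and PFC (0.053) did not differ beyond their spread (adjusted p = 0.125), and the CC lay below the PFC by 2.35 log2 units.

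Spink8 encodes a secreted inhibitor of serine proteases of the Kazal type. Its only probe set (1435999_at) read 5.30, 5.50 and 5.39 in CMS mice, against 6.08, 6.07 and 6.02 in control mice in the hippocampus. The amygdala arrays read 0.0035, 0.71 and 0.013 in CMS mice, against 1.53, 1.16 and 2.03 in control mice. The CC arrays read -0.30, -0.17 and -0.74 in CMS mice, against -0.0035, -0.27 and -0.28 in control mice, and the PFC arrays -0.028, -0.29 and -0.28 in CMS mice, against -0.30, -0.12 and -0.34 in control mice. As with Prox1, the control amygdala took an intermediate place, above both cortical areas without overlap. The hippocampus of control mice exceeded the amygdala by 4.49, the CC by 6.24 and the PFC by 6.31 (SE 0.18 each). The CC and PFC did not differ beyond their spread (adjusted p = 0.786).

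Man1a encodes a Golgi mannosidase that trims the sugar chains of glycoproteins. The more variable of its probe sets (1417110_at) read 1.14, 1.14 and 1.11 in CMS mice, against 0.88, 0.92 and 1.17 in control mice in the hippocampus. Amygdala tissue gave -0.0042, -0.40 and -0.053 in CMS mice, against -0.087, -0.15 and 0.11 in control mice. The CC values were -0.29, -0.23 and -0.039 in CMS mice, against -0.69, -0.64 and -0.50 in control mice, and the PFC values 0.0042, 0.49 and 0.48 in CMS mice, against 0.16, -0.015 and 0.22 in control mice. The hippocampus arrays lay above all others without overlap, and the control differences were 1.04, 1.60 and 0.87 against the amygdala, CC and PFC (SE 0.099 each). The CC was lowest, and the PFC and amygdala did not differ beyond their spread (adjusted p = 0.245). Probe set 1417111_at differed by 0.99, 1.49 and 1.01, so each probe set missed the 2-fold limit in a different contrast.

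Pou3f1 encodes a POU-domain transcription factor also known as SCIP, which marks CA1 in the mouse. The more variable probe set (1422068_at) read 1.08, 1.13 and 1.05 in CMS mice, against 1.25, 1.27 and 1.18 in control mice in the hippocampus. For amygdala tissue the values were -1.23, -1.23 and -1.65 in CMS mice, against -1.32, -1.51 and -1.22 in control mice. Those of the CC were -1.05, -0.90 and -1.21 in CMS mice, against -0.59, -0.25 and -0.21 in control mice, and those of the PFC 0.21, 0.35 and 0.21 in CMS mice, against 0.23, 0.40 and 0.42 in control mice. All 4 control areas were separated by this probe set, in the order hippocampus, PFC, CC and amygdala, with differences from the hippocampus of 0.88 for the PFC, 1.58 for the CC and 2.58 for the amygdala (SE 0.11 each). The other probe set, 1460038_at, placed the CC second (-0.011), then the amygdala (-0.32) and the PFC (-0.59), so the probe sets of Pou3f1 agreed that the hippocampus was highest and disagreed on the rest.

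The CMS arrays are another set of 12 samples. There the hippocampus exceeded the amygdala by call in 13 of 17 probe sets (3.5% of all probe sets were called higher), the CC in 13 (2.22%) and the PFC in 12 (2.77%), and again none was called lower (4.84%, 4.31% and 3.39% of all). The difference of Fibcd1 against the amygdala was 5.17 in CMS mice and 3.14 in control mice, and that of Prox1 was 3.08 in CMS mice and 2.37 in control mice. Calls changed between the treatments for 4 probe sets. Dsp probe set 1427610_at was called against all 3 areas only in CMS mice, with differences of 1.03 to 1.11. Trpc6 was not called against the CC in CMS mice, with a difference of 0.73 in CMS and 1.28 in control mice. Pou3f1 probe set 1460038_at was not called against the amygdala in CMS mice, with 0.76 in CMS and 1.28 in control mice. Man1a probe set 1417111_at was not called against the PFC in CMS mice, with 0.73 in CMS and 1.01 in control mice, so that neither Man1a probe set was called there. In limma's test of whether the CMS effect differs between the hippocampus and that area, none of these 4 was called. Pou3f1 (adjusted p = 0.000185) and Man1a (adjusted p = 0.0251) passed by adjusted p with differences under 2-fold, and Trpc6 (adjusted p = 0.0587) and Dsp (adjusted p from 0.267 to 0.404) did not pass. In CMS mice no member was called higher in the amygdala than in the CC or PFC, where 1.95% of all probe sets were called in each, whereas Prox1, Fibcd1 and Spink8 were called higher in the amygdala than in the CC, and Prox1 and Spink8 than in the PFC, in control mice (2.26% and 2.36%).

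**Figure D2:**
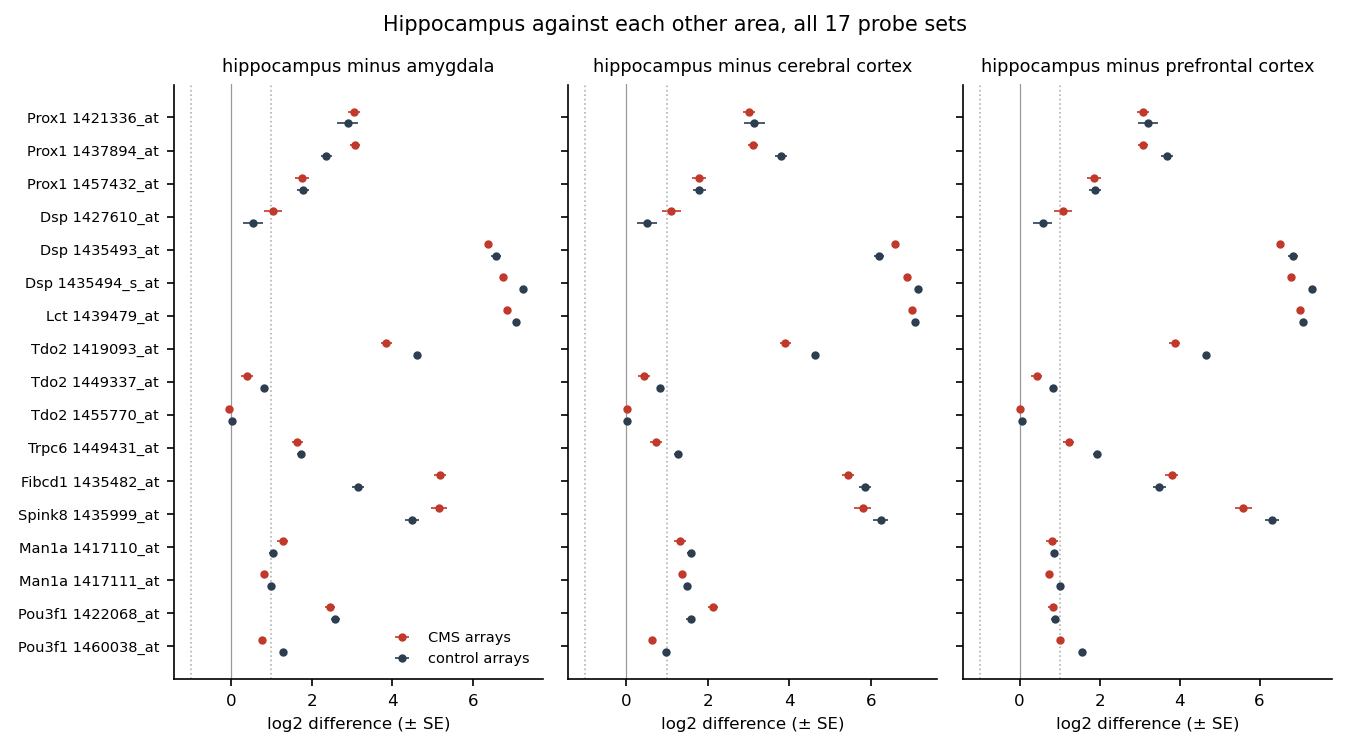
Log2 difference of the hippocampus minus the amygdala, CC and PFC for all 17 member probe sets, in CMS mice (red) above control mice (dark). Points are limma estimates from 12 arrays per treatment, bars are ± SE, and dotted lines mark 2-fold. Lct and 2 of the 3 Dsp probe sets lie between 6 and 8 in all panels, the Dsp probe set 1427610_at lies near 1 or below, and Fibcd1 lies further right in CMS than in control mice only in the amygdala and PFC panels.

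Other markers of the subfields, from a list of 31 gene symbols for granule cells, CA1, CA2 or CA3, were called in both directions. The symbols include older and newer names of the same gene (Nov and Ccn3, Pvrl3 and Nectin3). A total of 26 genes had 55 probe sets of their own. Of these, 17 were called higher and 4 lower in control hippocampus than in the amygdala, 15 higher and 2 lower than in the CC, and 11 higher and 3 lower than in the PFC. C1ql2, a secreted protein of granule cell synapses, exceeded the amygdala by 4.44 and the PFC by 7.34, and Homer3, a scaffold protein of the synapse, exceeded the amygdala by 3.04. Coch, listed for CA3, was called lower in the hippocampus than in the amygdala, with a difference of -3.56. Genes of neighbouring tissue moved with this contrast too. Of 15 choroid plexus probe sets, 12 were called higher in the hippocampus than in the amygdala, 4 than in the CC and 13 than in the PFC. Of 16 striatum probe sets, 13 were called lower in the hippocampus than in the amygdala, 3 than in the CC, where 1 was higher, and 12 than in the PFC. Their part in the members' differences was not tested.

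With CMS, 3 of the 17 member probe sets were called in the amygdala, all of them lower, where 0.777% of all probe sets were called lower and 1.19% in either direction. Fibcd1 fell by 1.81 on the log2 scale (SE 0.13, adjusted p = 0.00316), with -1.47, -1.24 and -1.499 in CMS mice, against 0.19, 0.57 and 0.46 in control mice. Prox1 probe set 1437894_at fell by 1.33 (SE 0.21, adjusted p = 0.0206), with -0.27, 0.077 and 0.077 in CMS mice, against 1.43, 1.55 and 0.89 in control mice. Spink8 fell by 1.33 (SE 0.31, adjusted p = 0.0482), with 0.0035, 0.71 and 0.013 in CMS mice, against 1.53, 1.16 and 2.03 in control mice. In each of these all CMS arrays lay below all control arrays, as in 12.7% of all probe sets. The fold sizes were 3.51 for Fibcd1, 2.51 for Prox1 and 2.52 for Spink8.

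The 3 calls were not equally firm. Fibcd1 was called in all 15 alternative settings, and its adjusted p was 0.0109 to 0.0207 in the 6 of them that left out an array. Prox1 lost its call without CMS replicate 2 (adjusted p = 0.0547), control replicate 1 (0.0763) or control replicate 2 (0.0723). Spink8 lost it whichever amygdala array was left out, with adjusted p from 0.0529 to 0.131, while its difference stayed between -1.06 and -1.56 in all settings. The other Prox1 probe sets differed by -0.27 and 0.043 and were not called.

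The other 14 member probe sets were not called in the amygdala. Trpc6 differed by -0.44 (adjusted p = 0.0225), under the 2-fold limit, with -0.73, -0.77 and -0.52 in CMS mice, against -0.26, -0.20 and -0.25 in control mice. Dsp probe set 1435493_at was higher by 0.17 and Pou3f1 probe set 1460038_at by 0.30 at adjusted p under 0.05 alone, by which 18.3% of all probe sets passed. The remaining probe sets of Dsp, Lct and Tdo2 differed by no more than 0.080. Those of Man1a differed by -0.11 and 0.13, and Pou3f1 probe set 1422068_at by -0.020. The median difference of all 17 was 0.029, beside 0.027 over all probe sets.

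**Figure D3:**
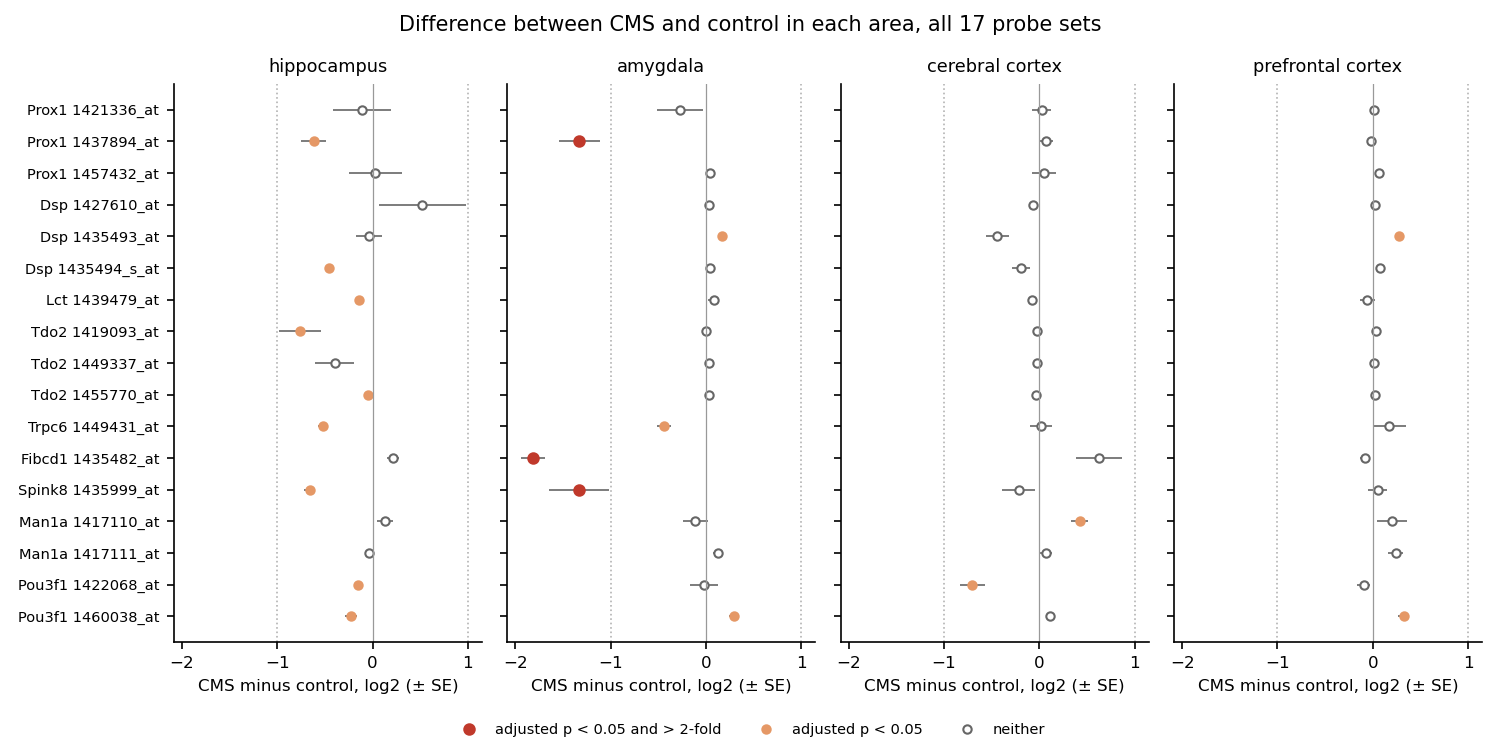
CMS minus control difference on the log2 scale (± SE, limma, 6 arrays per area) for all 17 member probe sets in the 4 areas. Filled red points passed adjusted p under 0.05 and 2-fold, orange points adjusted p alone, and open points neither. Red points occur only in the amygdala panel, for Prox1, Fibcd1 and Spink8, and all lie left of -1.

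Fibcd1 and Prox1 shared the area and direction of change, so their sequence upstream of the gene start is shown. RefSeq's promoter table (GRCm38.p6) held 7 of the 9 members. Spink8 and Pou3f1 were not among them. The 250 bases before the start were searched on both strands for CAGATG, an E-box of the type bound by NeuroD factors of granule cells, and for TGCAAAT, the core of the octamer bound by POU-domain factors. The window of the first annotated Prox1 start is chr1:190170828-190171077 on the minus strand. Its single match to CAGATG, 179 bases before the start, is in capitals. The Fibcd1 window is chr2:31846006-31846255 on the minus strand and held neither motif. Both are written 5′ to 3′ in the direction of the gene.
Prox1: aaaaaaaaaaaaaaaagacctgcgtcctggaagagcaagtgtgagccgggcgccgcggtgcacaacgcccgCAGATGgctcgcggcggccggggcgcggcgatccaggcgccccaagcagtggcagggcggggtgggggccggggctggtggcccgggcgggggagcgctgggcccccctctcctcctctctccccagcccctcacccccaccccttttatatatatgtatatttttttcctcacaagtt
Fibcd1: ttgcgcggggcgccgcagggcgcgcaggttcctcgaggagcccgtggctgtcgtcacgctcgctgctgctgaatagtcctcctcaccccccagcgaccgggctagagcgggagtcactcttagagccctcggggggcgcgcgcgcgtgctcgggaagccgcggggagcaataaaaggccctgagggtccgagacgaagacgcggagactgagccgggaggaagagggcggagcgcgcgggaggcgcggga
Of 32851 windows of this length in the table, 14.4% held CAGATG and 3.56% TGCAAAT. The 7 members had 8 annotated starts, and apart from the Prox1 match neither motif was found. The windows shown for Prox1 and Fibcd1 had 64.8% and 71.6% G and C. The window of the second annotated Prox1 start, which is not shown, held neither motif and had 56% G and C.

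Other genes moved in the same area and direction as Fibcd1, Prox1 and Spink8. The lists used here were chosen with earlier results of these data known, and the study names C1ql2 among its strongest falls in the amygdala. Among the other subfield genes, 4 of 55 probe sets were called in the CMS amygdala, each of them lower. C1ql2 fell by 2.82, with -1.19, -1.19 and -1.07 in CMS mice, against 1.88, 1.52 and 1.61 in control mice. C1ql3, a related secreted protein, fell by 2.03 and 1.48 with its called probe sets. Amigo2, an adhesion protein that marks CA2, fell by 1.22 with 1 of its 2 probe sets, and the other was not lower by adjusted p. The 21 probe sets of granule cell genes averaged -0.36 to -0.32 per array in CMS mice, against 0.080 to 0.14 in control mice. The 4 probe sets of other CA1 genes went the other way, at -0.13 to -0.099 per CMS array, against -0.36 to -0.28 per control array. By adjusted p alone, 4 of the 55 were higher and 13 lower, beside 18.3% of all probe sets in either direction. Among the 19 CA3 probe sets, 2 were higher and 2 lower. The median difference of the 55 was 0.0073.

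Markers of the hypothalamus, which borders the amygdala, moved as well. The study already names Pmch, Lhx9 and Ttr among its strongest falls in this area, so their calls are not independent evidence about the lists. Of 13 hypothalamus probe sets, 3 were called lower. Pmch, which encodes melanin-concentrating hormone, differed by -4.18, with 0.10, 0.33 and 0.21 in CMS mice, against 4.38, 4.40 and 4.41 in control mice. Calcr fell by 2.18 and Otp by 1.06. The 13 averaged 0.73 to 0.89 per CMS array, against 1.39 to 1.63 per control array. Of 30 probe sets of the thalamus and habenula, the 3 of Lhx9 called were all lower, and of 15 of the choroid plexus, 4 of Ttr were lower and 1 of Kcnj13 higher. The choroid plexus list averaged -1.66 to -1.63 per CMS array, against -0.81 to -0.73 per control array. Striatum genes moved the other way. Of their 16 probe sets, 9 were higher by adjusted p and none lower, 1 of Pde10a was called higher, and the list averaged 1.47 to 1.58 per CMS array, against 1.14 to 1.15 per control array. Of 17 oligodendrocyte probe sets, none was called and 9 were lower by adjusted p, with list means of -0.33 to -0.29 per CMS array, against 0.0098 to 0.044 per control array. Amygdala genes averaged 0.84 to 0.95 per CMS array, against 1.02 to 1.07 per control array. Of their 14 probe sets, 1 was called higher and 1 lower. Neocortical layer genes averaged 0.093 to 0.23 per CMS array, against 0.047 to 0.060 per control array. Of their 16 probe sets, 1 was called higher and 0 lower. The centred scale does not show which of these markers were at background. Their part in the members' differences was not tested.

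**Figure D4:**
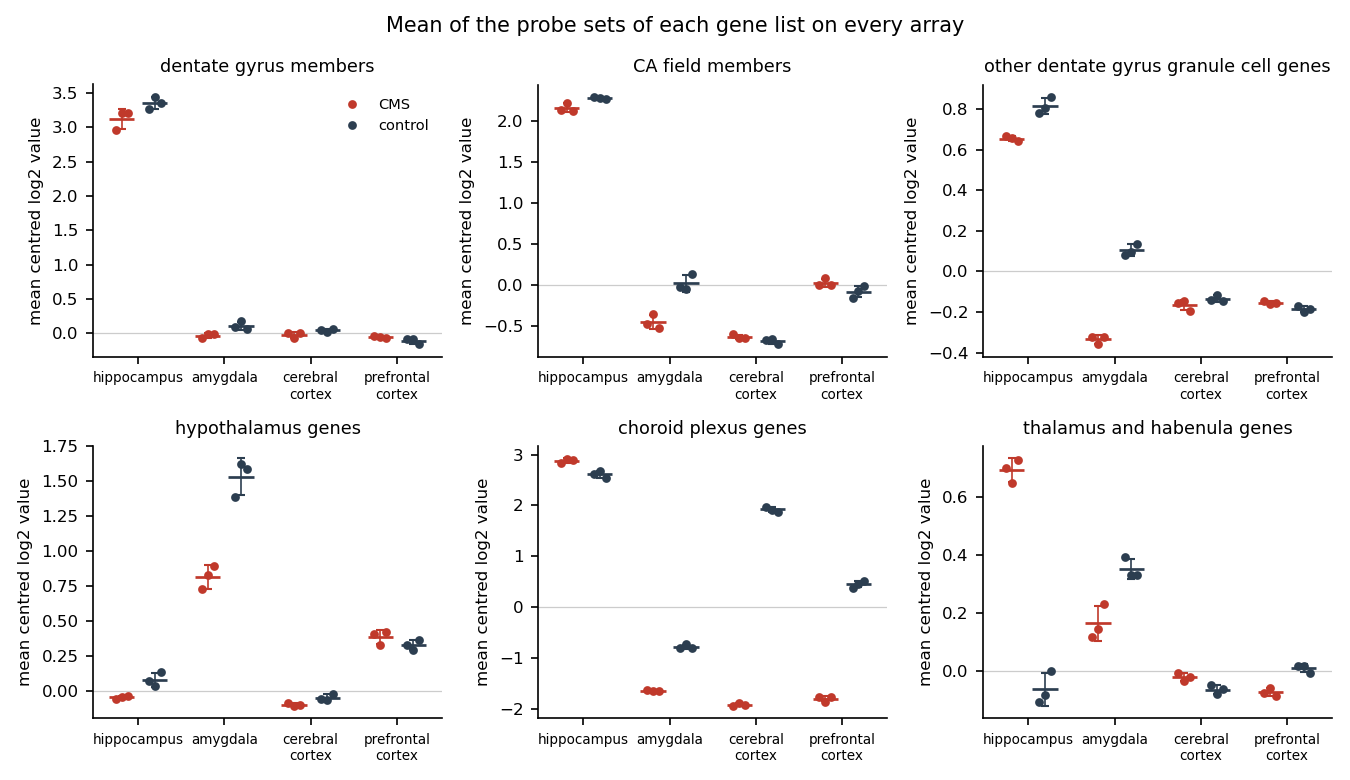
Mean centred log2 value over the probe sets of 6 gene lists on each of the 24 arrays, with CMS (red) left of control (dark), group means as lines and standard deviations as bars (n = 3). In the amygdala all 6 lists are lower in CMS than in control mice. In the hippocampus the thalamus and habenula and choroid plexus lists are higher in CMS than in control mice, and the others are lower. The choroid plexus list is also lower with CMS in the CC and PFC, where smaller shifts of other lists are not described.

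In the hippocampus itself, where the 9 genes are most abundant relative to the other areas, none of the 17 probe sets was called with CMS (0.651% of all probe sets). By adjusted p alone, 9 were lower and none higher, beside 35% of all probe sets lower and 40.7% in either direction. The median difference was -0.14 for the 17 and -0.046 for all probe sets. Of the 9, the differences were -0.45 for Dsp (1435494_s_at), -0.52 for Trpc6, -0.66 for Spink8, -0.62 for Prox1, -0.76 and -0.045 for the Tdo2 probe sets, -0.14 for Lct, and -0.15 and -0.22 for those of Pou3f1.

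Dsp read 6.81, 6.80 and 6.75 in CMS mice, against 7.27, 7.19 and 7.25 in control mice (adjusted p = 0.00455). Trpc6 read 0.89, 0.98 and 1.05 in CMS mice, against 1.48, 1.45 and 1.55 in control mice (adjusted p = 0.00778). Spink8 read 5.30, 5.50 and 5.39 in CMS mice, against 6.08, 6.07 and 6.02 in control mice (adjusted p = 0.00659). These 3 stayed under the adjusted p limit whichever hippocampus array was left out, and their groups did not overlap, as in 51.9% of all probe sets with CMS lower. Leaving out an array lowered the number of probe sets that passed from 9 to between 3 and 8, and centring each array on its median lowered it to 3. Quantile normalization brought the Spink8 difference down to -0.27 (adjusted p = 0.0324) and moved that of Pou3f1 probe set 1422068_at to -0.26. It turned the Lct difference to 0.67 and moved that of Dsp probe set 1435494_s_at to -0.67, the same size with the opposite sign. On the hippocampus arrays as deposited, the value of this Dsp probe set was above that of Lct in control mice (means 7.24 and 7.07). It was below that of Lct in CMS mice (6.78 and 6.93). The cause was not tested, no direction is given for Lct, and -0.67 is not read as a larger fall of Dsp.

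Fibcd1, which fell in the amygdala, read 3.71, 3.90 and 3.70 in the CMS hippocampus, against 3.60, 3.55 and 3.49 in the control hippocampus, a difference of 0.22 that missed the threshold (adjusted p = 0.0505). Other probe sets of the same genes also missed it. Dsp probe set 1427610_at differed by 0.52 with an SE of 0.45, and Prox1 probe sets 1421336_at and 1457432_at by -0.11 and 0.029. Of the other subfield genes, none of 55 probe sets was called in the hippocampus. By adjusted p alone 19 were lower and 5 higher, beside the 35% of all probe sets lower and 40.7% in either direction. The counts varied between the lists, which were not tested against each other, and how far they depend on the processing is not given. Among the members, 6 of 11 dentate gyrus and 3 of 6 CA field probe sets were lower. Of 21 granule cell probe sets, 13 were lower and 0 higher, and of 4 CA1 probe sets, from 3 genes, 3 were lower. Among 11 CA2 probe sets 1 was lower and 3 higher, and among 19 CA3 probe sets 2 were lower and 2 higher. Markers of the thalamus and habenula were also measured. The list was chosen with earlier results known. It holds Tcf7l2, Zic1 and Tnnt1, which the study names among its strongest rises here, so their calls were known beforehand. Of 30 such probe sets, 9 of 6 genes were called higher, among them Tcf7l2 by 3.09, Zic1 by 2.35 and Tnnt1 by 2.33, and the list averaged 0.65 to 0.73 per CMS array, against -0.11 to 0.0032 per control array. The choroid plexus list averaged 2.82 to 2.92 per CMS array, against 2.54 to 2.68 per control array, with none of its probe sets called. Their part in the members' values was not tested.

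In the CC none of the 17 was called with CMS (1.12% of all probe sets). At adjusted p alone, which 9.15% of all probe sets passed, Man1a probe set 1417110_at differed by 0.42 (SE 0.085, adjusted p = 0.0441) and Pou3f1 probe set 1422068_at by -0.70 (SE 0.13, adjusted p = 0.0366). The Man1a values were -0.29, -0.23 and -0.039 in CMS mice, against -0.69, -0.64 and -0.50 in control mice, and the Pou3f1 values -1.05, -0.90 and -1.21 in CMS mice, against -0.59, -0.25 and -0.21 in control mice. Neither gene showed the change with its other probe set, which differed by 0.072 for Man1a and 0.12 for Pou3f1. Fibcd1 differed by 0.63 with an SE of 0.24 and was not called. Markers of neighbouring tissue moved in this contrast. Their lists were chosen with earlier results known. They hold genes that the study names among its strongest changes here (Ttr, Kl, Kcne2, Drd2 and Pde10a among them), so such calls were known beforehand. Of 15 choroid plexus probe sets, 12 were called lower, with differences of -7.22 for Ttr, -4.58 for Kl and -4.36 for Kcne2. The list had a median difference of -4.00 and means of -1.94 to -1.89 per CMS array, against 1.88 to 1.97 per control array. Of 16 striatum probe sets, 12 were called higher, with differences of 3.02 for Drd2, 2.72 for Pde10a and 2.15 for Gpr6. This list had a median difference of 1.40 and means of -0.68 to -0.59 per CMS array, against -2.06 to -1.91 per control array. Of 17 oligodendrocyte probe sets, 7 were higher by adjusted p and 1 of Mbp was called. Their part in the members' values was not tested.

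In the PFC none of the 17 was called (0.209% of all probe sets), and 2 passed adjusted p alone (5.26% of all). Dsp probe set 1435493_at was higher by 0.28 (adjusted p = 0.0164), with -0.12, -0.082 and -0.060 in CMS mice, against -0.35, -0.33 and -0.42 in control mice. Pou3f1 probe set 1460038_at was higher by 0.32 (adjusted p = 0.0496), with -0.27, -0.20 and -0.32 in CMS mice, against -0.69, -0.58 and -0.50 in control mice. Both were under the 2-fold limit. Prox1, Fibcd1 and Spink8 differed by -0.015, -0.084 and 0.051. Here too other markers moved, though the study already names Ttr and Kl among its strongest falls in this area. Of 15 choroid plexus probe sets, 5 were called lower, 4 of Ttr and 1 of Kl, and the list averaged -1.86 to -1.77 per CMS array, against 0.38 to 0.52 per control array. Of 17 oligodendrocyte probe sets, none was called and 10 were lower by adjusted p, with list means of -0.34 to -0.31 per CMS array, against -0.15 to -0.078 per control array. Of 16 striatum probe sets, none was called, and 4 were lower and 1 higher by adjusted p. Their part in the members' values was not tested.

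Whether the CMS effect itself differed between areas was tested in a fit of all 24 arrays. In the F-test over the 4 areas 10 of 17 probe sets passed, beside 55% of all probe sets, so the count says little about the members. The pairwise differences of 2-fold or more are more specific. The CMS effect on Fibcd1 in the amygdala differed from that in the hippocampus by -2.03 log2 units (adjusted p = 4.76e-06), with 2.09% of all probe sets called in that pair. It differed from that in the CC by -2.44 (3.63% called) and from that in the PFC by -1.73 (1.49% called). For Prox1 the effect in the amygdala differed from that in the CC by -1.40 and from that in the PFC by -1.31, and for Spink8 by -1.11 and -1.38. Against the hippocampus, Prox1 and Spink8 were not called. In the other 3 pairs no member was called, beside 1.37%, 1.47% and 1.88% of all probe sets for hippocampus with CC, hippocampus with PFC and CC with PFC.

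The genes whose pattern over the 24 arrays was most like that of each member were found by Pearson's r with its most variable probe set. The arrays share areas and groups, so r is given as a description. Lct and Dsp had the same nearest gene, Cabp7, a calcium-binding protein, with r = 0.999 and 0.998, and Tmem212 (0.996) came next for Lct. Ccbe1 was near to Dsp (0.997) and Tdo2 (0.992), and Klk8, a secreted protease, was nearest to Tdo2 (0.992). Thsd4 was near to Prox1 (0.985) and Spink8 (0.989), beside Slit1 for Prox1 (0.988) and Tgfb2 for Spink8 (0.992). Fgfr1 (0.982) and Orai2 (0.976) were nearest to Fibcd1, Jph1 (0.961) and Epha4 (0.957) to Trpc6, probe sets of Zbtb20 (0.957 and 0.947) to Man1a, and Arpc4 (0.962) and Sh3gl1 (0.958) to Pou3f1.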

How the data were processed

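Total RNA of 4 brain areas was hybridised to 24 arrays in 8 groups of 3 by label. The authors summarised the scans with GCRMA in GeneSpring GX and applied a baseline normalization (version not given in the sources used here), and the deposited log2 values are centred on each probe set's median. Probe sets were named from the platform annotation, where 34945 had 1 symbol, 932 several and 9160 none. After 64 Affymetrix control probe sets of 45101 were left out, 45037 were fitted with limma 3.58.1 in R 4.3.3: CMS against control within each area (6 arrays), areas within each treatment (12 arrays), and 8 group means (24 arrays) for differences between areas. Tests were two-sided, with Benjamini-Hochberg adjustment over all probe sets. The scripts were tested on simulated data. Members and lists were chosen with earlier results of these data known, and named by rule: every member probe set, values per array for those called with CMS and for the most variable of each gene, up to 3 called genes a list and area, and the 2 genes most like each member. Replicate numbers are not stated to be mice, so the main fits did not pair samples by them. Arrays of different areas were treated as independent, and whether areas share mice is not known. The study names both independent mice and pooled RNA, so p-values may measure only the spread between these samples. Sample descriptions give ages whose upper end rises from sample to sample, so age was not used. The number of arrays limits the precision. Alternatives were quantile normalization, median centring, a filter on the standard deviation, trend and robust options, array weights, no fold limit, a fit of all arrays, the methods' t-test, a replicate block, genes in place of probe sets, and leaving out each array.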

Additional observations from a re-analysis of the deposited data

Results flagged for a closer look

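The CMS effect differed between the 4 areas in 10 of the 17 member probe sets, by an F-test in limma over all 24 arrays that 55% of all probe sets also passed. The adjusted p was 9.34e-07 for Fibcd1, 8.00e-05 for Prox1 probe set 1437894_at, 0.00352 for Spink8 and 0.00682 for Trpc6. It was 0.00254 and 0.000438 for Dsp probe sets 1435493_at and 1435494_s_at, 0.00198 and 0.00465 for Tdo2 probe sets 1419093_at and 1455770_at, and 0.00715 and 0.000146 for Pou3f1 probe sets 1422068_at and 1460038_at. For Fibcd1, Prox1 and Spink8 a pairwise difference between areas was over 2-fold and called, the largest being 2.44 log2 units in size for Fibcd1. For the other 7 the largest pairwise difference was 0.074 to 0.79 log2 units in size.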

How the results depend on the processing

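The member counts of the hippocampus against the other areas moved little: leaving out 1 array gave 12 to 14 (amygdala), 13 to 14 (CC) and 11 to 12 (PFC) on control arrays, and 12 to 13, 12 to 13 and 11 to 12 on CMS arrays. With genes in place of probe sets, 8 of 9 genes were called against the CC on CMS arrays and 7 of 9 against the PFC. Of all genes, 5.7% and 5.1% were called in either direction. The F-test was passed by 6 of 9, near the 52.3% of all genes that passed. With 1 array left out, 10 to 11 of the 17 probe sets passed it. In the amygdala, leaving out 1 array gave 1 to 2 CMS calls. Spink8 also lost its call with quantile normalization (adjusted p = 0.0606), median centring (0.0571), array weights (0.0922) and the methods' t-test (0.0612). With any array left out the count stayed at 0 in the hippocampus, CC and PFC. With no fold threshold the CMS calls numbered 6 (amygdala, 18.3% of all probe sets), 9 (hippocampus, 40.7%), 2 (CC, 9.15%) and 2 (PFC, 5.26%). Quantile normalization turned the CMS difference in the hippocampus to 0.67 for Lct and 0.037 for Tdo2 probe set 1455770_at. That of Dsp probe set 1435494_s_at became -0.67, the same size as for Lct with the opposite sign. The cause was not tested. Same-numbered arrays did not deviate together (correlations from -0.227 to 0.106, of which 1 was over 0.1). With the replicate number as a block, 1 member was called in the amygdala (0.546% of all probe sets), and 0 in the hippocampus passed by adjusted p alone. The centred table holds no brightness, so a limit set by signal over background could not be given.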
